A study of Mus musculus with 6 samples.

Results

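DNA replication genes were examined in sorted cells of the embryonic mouse ventral forebrain that carried a floxed copy of Magoh, and in control cells. The 50 genes were given by name and are those of origin licensing, the replicative helicase, the DNA polymerases, the sliding clamp and its loader, nucleotide supply, the chromatin factors that follow the fork, and the E2F transcription factors. All 50 were found by gene name among the 38561 genes of the raw count table, and all 50 were among the 16495 genes kept for testing. The rule uses gene names only.

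The cells came from the medial ganglionic eminence (MGE), a source of cortical interneurons, at E11.5, in C57BL/6 mice. The 2 heterozygous libraries had the genotype Magoh lox/+; Nkx2.1-Cre; ROSAloxSTOPloxTdTomato, and the 4 control libraries had Nkx2.1-Cre and ROSAloxSTOPloxTdTomato without the floxed Magoh allele. Cre recombinase under Nkx2.1 control and the tdTomato reporter were thus present in both groups, and tdTomato-positive telencephalic cells were isolated by flow sorting. The study asked how the loss of a copy of Magoh, a subunit of the exon junction complex that is deposited on spliced mRNAs, alters the MGE transcriptome.

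Libraries held between 37.4 and 49.2 M counts, where M stands for 1e+06. Magoh had 57.1 and 48.6 CPM in the heterozygous libraries, against 68.1, 118, 63.6 and 74.3 CPM in controls 1 to 4 (CPM, counts per 1e+06 counts, scaled by TMM factors). Both heterozygous libraries were below all controls, with a log2 fold change of -0.62 (standard error, SE, 0.27; edgeR, Benjamini-Hochberg adjusted p = 0.85). Nkx2-1, under whose control Cre marked the sorted cells, was present in all libraries. It had 349 and 466 CPM in the heterozygous libraries, against 339 to 561 CPM in controls. Emx1, a marker of the neighbouring dorsal forebrain, was at most 1.10 CPM in any library. A list of 6 dorsal telencephalon genes, given below, summed to 86.6 to 172 CPM over the libraries, so other dorsal genes were present. Heterozygous library 1 and control 2 held 0 reads of 4 Y-linked genes, and the other 4 libraries held 3453 to 4291. The libraries therefore form a pair without Y-linked reads and a set of 4 with them, heterozygous library 2 and controls 1, 3 and 4, and values are given within both. Neither set has replicates in both groups.

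A cell copies its genome once per cycle. Origin recognition proteins, Cdc6 and Cdt1 load the Mcm2 to Mcm7 ring on DNA in G1, and at the onset of S phase Cdc45 and the GINS complex turn that ring into the active helicase. Polymerase alpha with primase starts each strand, polymerase epsilon extends the leading strand and polymerase delta the lagging strand, both held on DNA by the Pcna clamp. Transcription of most of these genes is driven at the G1 to S transition by E2F factors. In the embryonic forebrain most are therefore high in dividing progenitors, such as those of the ventricular zone, and fall as neurons form.

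Most replication genes were slightly lower in the heterozygous libraries, and none passed the test. The log2 fold change was below 0 for 44 of 50 genes, against 53.9% of all tested genes. Its median was -0.16, against -0.029 over all genes, and it ranged from -0.89 for Rfc1 to 0.20 for Rfc3. With edgeR and Benjamini-Hochberg adjustment over all tested genes, 0 of 50 passed 0.05 (smallest adjusted p = 0.85), where 0% of all genes did. DESeq2 likewise called 0 of 50, against 0.455% of all genes. At an unadjusted p under 0.05 a single replication gene was lower, Pole, and 0 were higher, where 3.98% of all genes were lower at that level. The RNA was measured in bulk, so fewer cells in S phase and less RNA per cell cannot be told apart.

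By library, the median of the 50 genes relative to the control mean was -0.078 and -0.24 log2 units in heterozygous libraries 1 and 2, against -0.047, -0.029, 0.030 and 0.024 in controls 1 to 4. Their summed level was 6346 and 6056 CPM in the heterozygous libraries, against 6873, 6834, 7422 and 7029.7 CPM in the controls. Both heterozygous sums lay below all 4 control sums. Gene by gene this held less often: both heterozygous libraries were below all 4 controls for 5 genes (10%), namely Mcm6, Pola1, Pola2, Pold1 and Rrm1, against 8.14% of all tested genes. They were above all 4 controls for 0 of 50, against 6.17% of all genes. The share of the 5 genes was near the background.

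Within the 2 sets of libraries the counts were as follows. Heterozygous library 2 was below controls 1, 3 and 4 for 39 of 50 genes (78%), against 35.2% of all genes. Heterozygous library 1 was below control 2 for 32 of 50 (64%), against 50.4% of all genes. Both held for 23 genes (46%), against 18% of all genes. The sets went opposite ways for 20 genes (40%), against 31.7% of all genes. Of these, 16 were lower in heterozygous library 2 and higher in heterozygous library 1, and 4 the reverse. In a fit of the 4 libraries with Y-linked reads, which rests on 1 heterozygous library, the median was -0.22 with 41 of 50 genes below 0. In that fit 15 genes were lower at an unadjusted p under 0.05, against 11.8% of all genes, and 0 passed adjustment (edgeR, smallest adjusted p = 0.133). In the pair without Y-linked reads the median difference was -0.098. With heterozygous library 2 left out of the full comparison the median was -0.080 with 30 of 50 genes below 0, and with heterozygous library 1 left out it was -0.24 with 46 below 0. Without control 2, the count below 0 was 32 and the median -0.15. Leaving out any 1 of controls 1, 3 and 4 gave a median of -0.16 to -0.19 with 45 or 46 genes below 0.

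**Figure D1:**
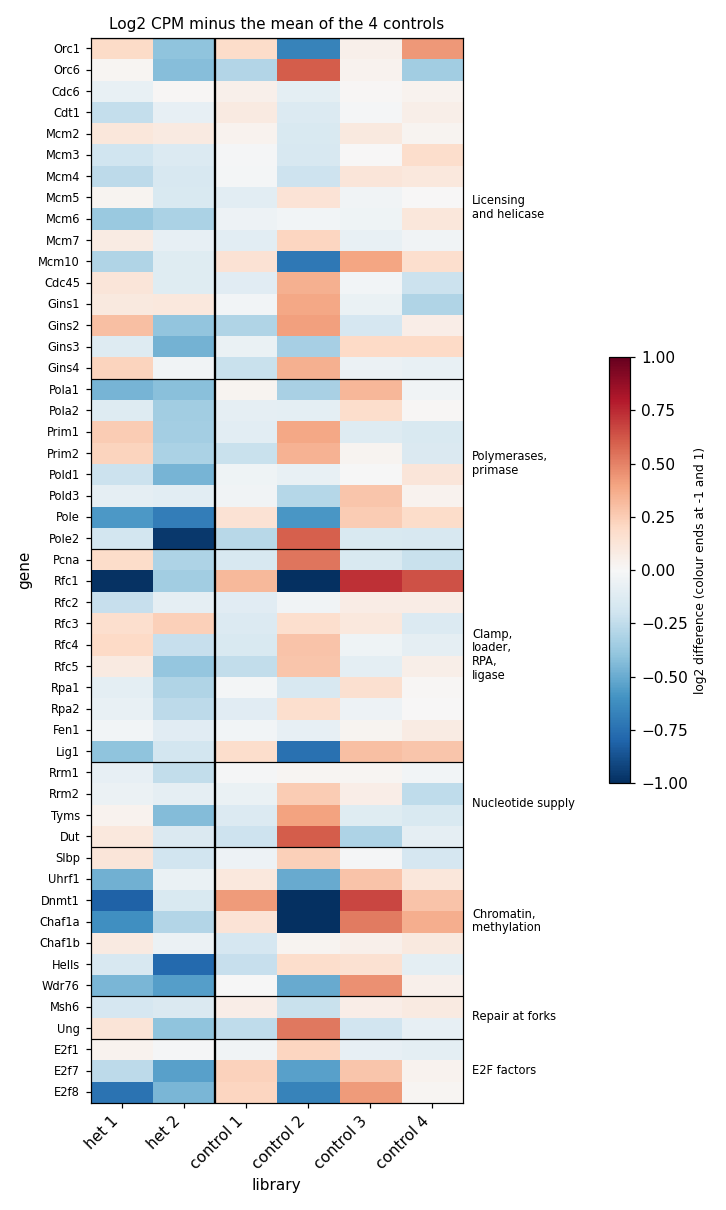
Log2 CPM of each of the 50 replication genes (rows, grouped by role) in each library (columns, heterozygous libraries left of the line) minus the mean of the 4 controls. Blue marks a lower and red a higher level. Heterozygous library 2 is blue in most rows, while heterozygous library 1 and control 2 share rows of blue at Rfc1, Dnmt1, Chaf1a and Lig1.

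**Figure D2:**
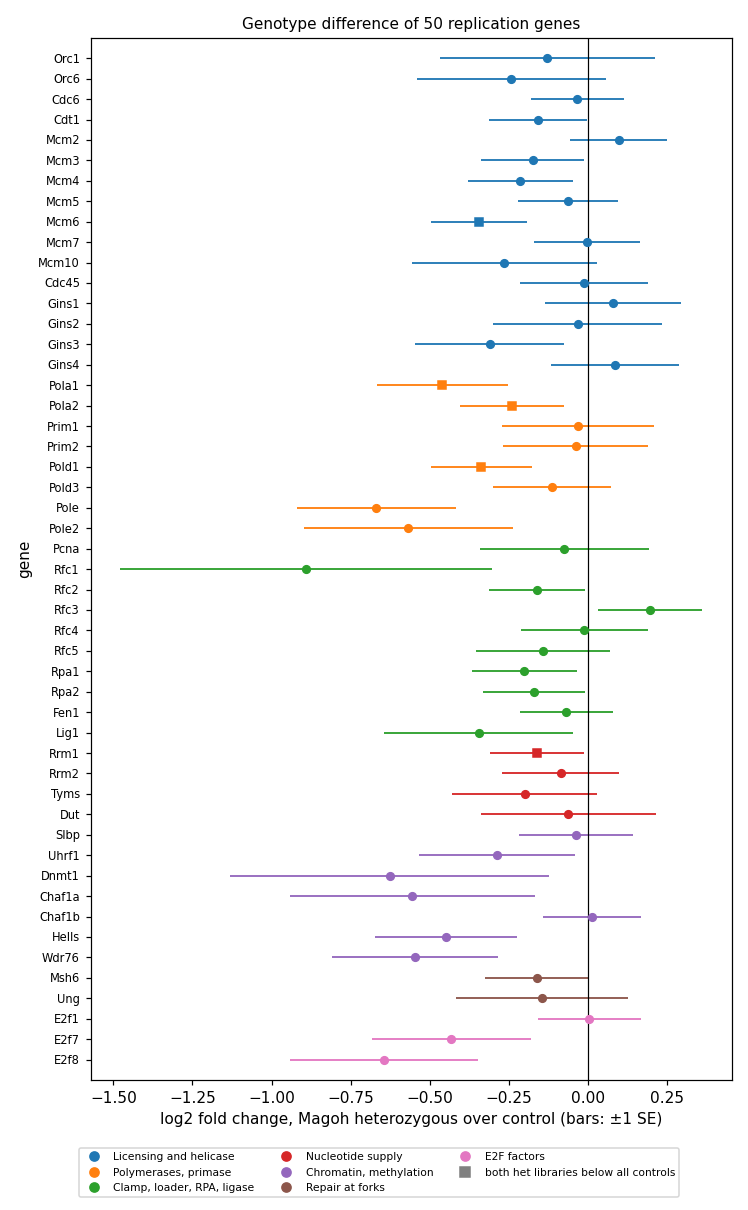
Log2 fold change of heterozygous over control libraries for the 50 genes, from the edgeR fit over all genes. Bars are 1 SE to each side, colours give the role, and squares mark the 5 genes whose heterozygous libraries both lay below all 4 controls. Of the 50 points 44 lie left of 0.

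E2F sites are a known feature of the promoters of S phase genes, and they were looked for here. E2F proteins bind sites of the form TTTCCCGC, TTTGGCGC, TTTCGCGC and TTTGCCGC, and these 4 letter strings were searched on both strands of RefSeq promoter windows that run from 250 bases before to 50 bases after a gene's start (GRCm38.p6). A window was found for 43 of the 50 genes, and 19 of these (44.2%) held at least 1 match in some window. The share was 22.5% for other replication genes (18 of 80), 4.46% for all tested genes with a window and 5.26% for genes of G2 and M phase (1 of 19). CCAAT boxes occurred in 60.5% of the replication genes, against 42.8% of tested genes. The cell cycle homology region motif TTTGAA, typical of G2 and M phase promoters, occurred in 16.3% of them, against 13.8% of tested genes and 73.7% of the G2 and M phase genes. A match is only a match of letters. The windows of 3 genes are printed because they belong to genes whose heterozygous libraries both lay below all controls, with E2F matches in capitals, 5′ to 3′ on the strand of the gene. In Mcm6 the upstream capitals are overlapping matches on opposite strands.
Mcm6 (chr1:128359656-128359955, minus strand): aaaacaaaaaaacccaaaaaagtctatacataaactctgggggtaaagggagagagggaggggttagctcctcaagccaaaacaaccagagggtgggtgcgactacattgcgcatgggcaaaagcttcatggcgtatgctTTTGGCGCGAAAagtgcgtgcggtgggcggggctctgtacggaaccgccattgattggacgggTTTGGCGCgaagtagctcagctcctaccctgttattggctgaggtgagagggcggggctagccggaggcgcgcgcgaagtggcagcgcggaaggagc
Pola1 (chrX:93632106-93632405, minus strand): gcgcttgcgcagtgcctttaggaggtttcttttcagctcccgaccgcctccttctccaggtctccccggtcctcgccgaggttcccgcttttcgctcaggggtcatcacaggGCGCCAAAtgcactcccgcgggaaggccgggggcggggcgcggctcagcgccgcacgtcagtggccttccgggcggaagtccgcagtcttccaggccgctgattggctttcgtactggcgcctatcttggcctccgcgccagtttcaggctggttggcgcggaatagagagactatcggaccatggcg
Pold1 (chr7:44548766-44549065, minus strand): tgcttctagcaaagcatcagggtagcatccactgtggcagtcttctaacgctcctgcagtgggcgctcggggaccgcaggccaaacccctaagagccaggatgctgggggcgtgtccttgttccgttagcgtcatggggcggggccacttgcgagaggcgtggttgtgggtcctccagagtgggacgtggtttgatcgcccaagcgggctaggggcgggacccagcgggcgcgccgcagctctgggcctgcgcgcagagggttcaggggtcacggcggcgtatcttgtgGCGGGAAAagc

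The windows of Pola2 and Rrm1, the remaining genes of that group, held none of the 4 strings. Among the other genes whose values are given by library below, 7 held a match, and the one nearest the start is shown in capitals with up to 10 bases on each side, on the strand that reads TTT first. They are shown because they place the same letters in licensing, helicase, methylation and E2F repressor genes.
Orc1 (motif at chr4:108579427-108579434): ggagaaaactTTTCGCGCcactaaccga
Mcm3 (motif at chr1:20820286-20820293): cttcccaagtTTTCCCGCcacggaagtt
Mcm5 (motif at chr8:75109360-75109367): ggctggacgtTTTGGCGCgaaagttctt
Mcm7 (motif at chr5:138171860-138171867): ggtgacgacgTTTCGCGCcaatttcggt
Gins3 (motif at chr8:95633518-95633525): tcaaactcgcTTTCCCGCgccgcactcg
Dnmt1 (motif at chr9:20952583-20952590): cggggcagcgTTTGGCGCgggctgtgc
E2f7 (motif at chr10:110745241-110745248): cgcgggagcgTTTCCCGCggggacgcgg

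The 19 genes with a match had a median log2 fold change of -0.29, with 18 of 19 below 0. The 24 genes with a window and no match had a median of -0.14, with 21 of 24 below 0. The difference between these medians was not tested, and the sets were not matched for mRNA length, which went with the values as described below. Of mRNAs under 2000 nt, the set with a match held only Pole2 and Rfc3. The set with no match held Orc6, Prim1, Pcna, Rfc4, Rpa2, Dut, Slbp and Chaf1b.

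Licensing and helicase genes were the least shifted of the large role groups, with a median log2 fold change of -0.095 and 13 of 16 below 0. Orc1, the largest subunit of the origin recognition complex, was the least abundant of the 50 genes per kilobase of mRNA. It had 9.07 and 6.00 CPM in the heterozygous libraries, against 9.01, 4.98, 8.22 and 10.7 CPM in controls 1 to 4. The groups overlapped, since control 2 was the lowest library and control 4 the highest. The Orc1 log2 fold change was -0.13 with an SE of 0.34 (edgeR, adjusted p = 0.999). The loaders Cdc6 and Cdt1 were close to their controls: Cdc6 averaged 55.3 ± 2.20 CPM in heterozygous and 56.6 ± 2.65 CPM in control libraries, and Cdt1 89.7 ± 6.89 CPM in heterozygous and 100.01 ± 6.91 CPM in control libraries (SD, n = 2 and 4).

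Mcm6 was the only subunit of the Mcm2 to Mcm7 ring whose groups did not overlap. It had 275 and 285 CPM in the heterozygous libraries, against 343, 349, 346 and 384 CPM in controls 1 to 4. Both heterozygous libraries lay below the lowest control, and controls 1 to 3 were within a few CPM of each other. The Mcm6 log2 fold change was -0.35 with an SE of 0.15 (edgeR, adjusted p = 0.85). It was -0.32 among the 4 libraries with Y-linked reads and -0.35 in the pair without them. The Mcm6 mRNA, of 4355 nt, is the longest of the ring. With each library's trends on mRNA length and GC content removed, the Mcm6 log2 fold change was -0.23 (SE 0.15). On that scale the median of all genes also rose, to 0.085 instead of -0.029.

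Mcm2 had 361 and 354 CPM in the heterozygous libraries, against 341, 299, 357 and 339 CPM in controls. Control 3 lay between the heterozygous values, and the log2 fold change was 0.098 with an SE of 0.15 (edgeR, adjusted p = 0.999). Mcm3 had 239 and 249 CPM in the heterozygous libraries, against 271, 245, 274 and 309 CPM in controls. Control 2 fell between the heterozygous values and the other 3 controls were above both. Mcm4 had 175 and 187 CPM in the heterozygous libraries, against 206, 181, 228 and 225 CPM in controls, again with control 2 between them. Mcm5 had 302 and 266 CPM in the heterozygous libraries, against 276, 325, 289 and 297 CPM in controls. Heterozygous library 2 was the lowest of the 6 and heterozygous library 1 next to the highest. Mcm7, the most abundant ring subunit per kilobase, had 431 and 384 CPM in the heterozygous libraries, against 379, 472, 387 and 396 CPM in controls. Its group means were 408 CPM in both groups. The log2 fold changes of Mcm3, Mcm4, Mcm5 and Mcm7 were -0.17, -0.21, -0.061 and -0.0030 with SEs of 0.16 or 0.17, and those of Mcm5 and Mcm7 changed sign under other settings.

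Because the ring holds 1 copy of each subunit, each Mcm gene was also set against the mean log2 level of the other 5. Relative to them Mcm6 stood at -0.066 and 0.030 log2 units in the heterozygous libraries, against 0.25, 0.27, 0.20 and 0.32 in controls 1 to 4. The groups did not overlap, and the mean difference was -0.28 log2 units. A two-sided exact permutation test gave p = 0.0667, the smallest that 2 against 4 libraries allow, and 0.4 after Benjamini-Hochberg adjustment over the 6 subunits. Mcm2 relative to the others was 0.41 and 0.41 log2 units in the heterozygous libraries, against 0.24, 0.0034, 0.25 and 0.10 in controls (exact permutation p = 0.133, adjusted 0.4). The heterozygous values were the highest of the 6 libraries there, and for the remaining 4 subunits the exact p was 0.4 or more. The 6 ratios are not independent, since each gene is part of the reference of the other 5. A lower Mcm6 by itself raises the Mcm2 ratio, but only as 1 of the 5 genes of its reference. Its share of the Mcm2 difference was not tested.

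Helicase activation genes showed small differences of both signs. Cdc45 and the GINS subunits Gins1, Gins2 and Gins4 had log2 fold changes of -0.011, 0.080, -0.032 and 0.086. More than 50% of the exon bases of Gins2 are shared with Gse1 on the opposite strand, so its reads cannot be assigned with certainty. Gins3 had 11.8 and 9.32 CPM in the heterozygous libraries, against 12.4, 10.2, 14.9 and 14.9 CPM in controls. Control 2 lay between the heterozygous values and the log2 fold change was -0.31 with an SE of 0.24 (edgeR, adjusted p = 0.97). Mcm10, which helps activate the helicase, averaged 43.2 ± 3.89 CPM in heterozygous and 51.9 ± 15.1 CPM in control libraries (SD, n = 2 and 4), and Orc6 averaged 44.7 ± 9.68 CPM in heterozygous and 52.8 ± 17.4 CPM in control libraries.

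All 8 polymerase and primase genes lay below 0 on the log2 scale (median -0.29), and 0 passed the test. Pola1, Pola2 and Pold1 are 3 of the 5 genes, of 50, already counted as below every control in both heterozygous libraries, where 8.14% of all genes were. Heterozygous library 2 was below controls 1, 3 and 4 for all 8, against 35.2% of all genes, and heterozygous library 1 was below control 2 for 6 of 8, against 50.4%. Pola1 encodes the catalytic subunit of polymerase alpha. It had 40.0 and 41.2 CPM in the heterozygous libraries, against 56.1, 43.9, 69.4 and 53.8 CPM in controls 1 to 4. Control 2 came nearest to the heterozygous libraries and control 3 was the highest. With edgeR, Pola1 had a log2 fold change of -0.46 (SE 0.21, adjusted p = 0.85). Pola2, the accessory subunit of the same enzyme, had 66.2 and 57.1 CPM in the heterozygous libraries, against 68.3, 67.8, 81.8 and 73.2 CPM in controls. Heterozygous library 1 was only just below controls 1 and 2. For Pola2 the edgeR log2 fold change was -0.24 (SE 0.16, adjusted p = 0.949).

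The catalytic subunits of the strand-extending polymerases both had log2 fold changes below 0. Pold1, of polymerase delta, had 136 and 115 CPM in the heterozygous libraries, against 153, 149.6, 157 and 172 CPM in controls 1 to 4. Both heterozygous libraries were below the lowest control, and library 2 was further below. The Pold1 log2 fold change was -0.34 with an SE of 0.16 (edgeR, adjusted p = 0.855). Pole, of polymerase epsilon, is described because it alone had an unadjusted p under 0.05, and was thus chosen after its values were seen. It had 81.5 and 75.3 CPM in the heterozygous libraries, against 134, 81.3, 145 and 138 CPM in controls 1 to 4. Controls 1, 3 and 4 were well above both heterozygous libraries, while control 2 was level with heterozygous library 1. For Pole the log2 fold change was -0.67 with an SE of 0.25 (edgeR, unadjusted p = 0.0292, adjusted p = 0.85), -0.87 among the 4 libraries with Y-linked reads and 0.00347 in the pair without them. The smaller subunits differed: Pole2 had a log2 fold change of -0.57 (SE 0.33), Pold3 of -0.11 (SE 0.19), and the primase subunits Prim1 and Prim2 of -0.031 and -0.039.

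**Figure D3:**
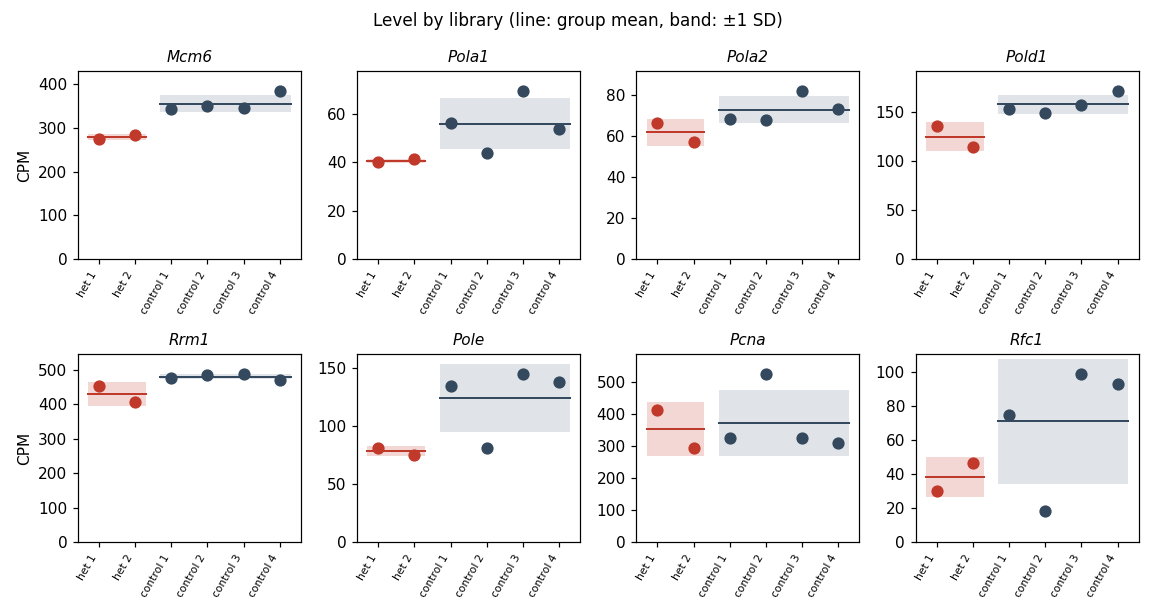
CPM of 8 replication genes in each library, heterozygous libraries in red to the left of controls in dark grey. Lines are group means and bands 1 SD to each side (n = 2 and 4), and each axis starts at 0. In the panels of Mcm6, Pola1, Pola2, Pold1 and Rrm1 both red points are below all grey points, while in Pole, Pcna and Rfc1 control 2 departs from the other controls.

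Of the 10 clamp, loader, single-strand binding and ligation genes, 9 had a log2 fold change below 0 (median -0.15). Pcna, the sliding clamp, had 411 and 293 CPM in the heterozygous libraries, against 324, 523, 326 and 311 CPM in controls 1 to 4. Control 2 was the highest and heterozygous library 1 the next, while the other 4 libraries lay close together. With edgeR, Pcna had a log2 fold change of -0.075 (SE 0.27, adjusted p = 0.999). The processed copy Pcna-ps2 held 2.99 to 5.79 CPM across the libraries, and reads of the 2 loci cannot be told apart with certainty. Rfc1, the large subunit of the clamp loader, varied most over the controls. It had 30.0 and 46.7 CPM in the heterozygous libraries, against 74.7, 18.4, 98.6 and 92.7 CPM in controls 1 to 4. Control 2 was the lowest of all 6 libraries and the other controls the highest. For Rfc1 the edgeR log2 fold change was -0.89 (SE 0.59, adjusted p = 0.946). It was -0.91 among the libraries with Y-linked reads and 0.70 in the pair without them, so the sign differed between the sets.

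The small loader subunits Rfc2, Rfc3, Rfc4 and Rfc5 had log2 fold changes of -0.16, 0.20, -0.011 and -0.14, with SEs of 0.15 to 0.21. Rpa1 and Rpa2, which coat single-stranded DNA, had -0.20 (SE 0.17) and -0.17 (SE 0.16). Fen1, the flap endonuclease that trims Okazaki fragments, averaged 98.3 ± 4.06 CPM in heterozygous and 103 ± 5.22 CPM in control libraries (SD, n = 2 and 4). More than 50% of the exon bases of Fen1 are shared with Gm10143 on the opposite strand. Lig1, which seals the fragments, averaged 145 ± 15.7 CPM in heterozygous and 184 ± 53.2 CPM in control libraries, with control 2 the lowest library.

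All 4 nucleotide supply genes had a log2 fold change below 0 (median -0.12). Rrm1, the large subunit of ribonucleotide reductase, was among the steadiest genes over the controls. It had 453 and 405 CPM in the heterozygous libraries, against 476, 486, 487 and 470.2 CPM in controls 1 to 4. Both heterozygous libraries were below all controls, library 2 by more. The Rrm1 log2 fold change was -0.16 with an SE of 0.15 (edgeR, adjusted p = 0.999). Rrm2, the small subunit and the most abundant of the 50 genes per kilobase, had 583 and 571 CPM in the heterozygous libraries, against 581, 723, 636 and 509 CPM in controls. The heterozygous libraries lay within the control range, and the log2 fold change was -0.085 with an SE of 0.18 (edgeR, adjusted p = 0.999). Tyms, which makes thymidylate, averaged 71.6 ± 16.5 CPM in heterozygous and 82.2 ± 16.7 CPM in control libraries (SD, n = 2 and 4). Dut, which removes dUTP, averaged 153 ± 19.0 CPM in heterozygous and 159 ± 51.1 CPM in control libraries.

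Of the 7 chromatin and methylation genes, 6 had a log2 fold change below 0, and their median of -0.45 was the lowest of the role groups. None passed the test, and 0 of the 7 had both heterozygous libraries below all controls. Heterozygous library 2 was below controls 1, 3 and 4 for 6 of 7, against 35.2% of all genes. Heterozygous library 1 was below control 2 for 2 of 7 (28.6%), under the 50.4% of all genes. Dnmt1 copies methylation to the new strand. It had 179.7 and 283 CPM in the heterozygous libraries, against 423, 121, 501 and 384 CPM in controls 1 to 4. Control 2 was the lowest library and heterozygous library 1 the next. With edgeR, Dnmt1 had a log2 fold change of -0.63 (SE 0.50, adjusted p = 0.976), -0.61 with Y-linked reads and 0.57 without. Chaf1a, the large subunit of the CAF-1 histone chaperone, had 65.6 and 82.0 CPM in the heterozygous libraries, against 110.3, 49.7, 144 and 129.5 CPM in controls. The order of the libraries was that of Dnmt1 at its low end, with control 2 lowest and heterozygous library 1 next. More than 50% of its exon bases are shared with Ubxn6 on the opposite strand, and its log2 fold change was -0.56 with an SE of 0.39 (edgeR, adjusted p = 0.956).

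Chaf1b, its partner subunit, averaged 70.04 ± 4.92 CPM in heterozygous and 69.4 ± 5.402 CPM in control libraries (SD, n = 2 and 4), a log2 fold change of 0.014. Wdr76, a WD-repeat protein, had 24.5 and 22.9 CPM in the heterozygous libraries, against 33.6, 23.7, 46.1 and 34.8 CPM in controls. Control 2 lay between the heterozygous libraries and the other controls were higher. For Wdr76 the edgeR log2 fold change was -0.55 (SE 0.26, adjusted p = 0.864). Hells, a chromatin remodeller needed for DNA methylation, had a log2 fold change of -0.45 (SE 0.22), and Uhrf1, which brings Dnmt1 to hemimethylated DNA, of -0.29 (SE 0.25). Slbp, which binds the stem-loop of histone mRNAs, had -0.037 (SE 0.18). The repair genes Msh6, of mismatch recognition, and Ung, which excises uracil, had -0.16 (SE 0.16) and -0.15 (SE 0.27).

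Of the 3 E2F members 2 were below 0 (median -0.43). E2f1, an activator, had 60.6 and 58.6 CPM in the heterozygous libraries, against 57.6, 68.8, 56.0 and 55.2 CPM in controls 1 to 4. Control 2 was the highest and the remaining libraries lay within a few CPM. The E2f1 log2 fold change was 0.0053 with an SE of 0.16 (edgeR, adjusted p = 0.999). E2f7, an atypical repressor that shuts down S phase genes, had 55.7 and 45.9 CPM in the heterozygous libraries, against 78.4, 46.0, 81.1 and 68.4 CPM in controls. Heterozygous library 2 and control 2 were nearly equal and lowest. With edgeR, E2f7 had a log2 fold change of -0.43 (SE 0.25, adjusted p = 0.909). Its relative E2f8 had 28.9 and 35.1 CPM in the heterozygous libraries, against 56.1, 30.3, 64.8 and 48.98 CPM in controls. Control 2 lay between the heterozygous libraries, and controls 1, 3 and 4 were all higher. For E2f8 the edgeR log2 fold change was -0.64 (SE 0.30, adjusted p = 0.85). Whether the repressors differ from E2f1 was not tested.

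Levels per kilobase of mRNA gave the order of abundance. Rrm2 had 266 and 260.4 CPM per kilobase in the heterozygous libraries and 279 ± 41.1 in controls (mean ± SD, n = 4). Pcna had 271 and 193 CPM per kilobase in the heterozygous libraries and 244 ± 67.2 in controls, and Mcm7 145 and 129.8 in the heterozygous libraries and 138 ± 14.4 in controls. Rrm2 and Pcna did not differ beyond their spread. At the low end Orc1 had 3.01 and 1.99 CPM per kilobase in the heterozygous libraries and 2.73 ± 0.795 in controls, Gins3 4.69 and 3.70 in the heterozygous libraries and 5.20 ± 0.889 in controls, and Wdr76 5.87 and 5.49 in the heterozygous libraries and 8.29 ± 2.20 in controls.

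The length of the mRNA went with the differences between libraries. Across the 50 genes, the Pearson correlation of log10 mRNA length with a library's log2 deviation from the mean of all 6 was -0.63 and -0.11 in heterozygous libraries 1 and 2, against 0.66, -0.62, 0.64 and 0.68 in controls 1 to 4. Over 16266 genes it was -0.11 and 0.069 in the heterozygous libraries, against 0.20, -0.32, 0.18 and 0.088 in controls. These are correlations across genes within a library, which share its depth and composition, and genes are not independent replicates. Relative to short ones, long replication mRNAs were thus low in heterozygous library 1 and in control 2 and high in controls 1, 3 and 4, with heterozygous library 2 in between.

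The 14 replication genes of 4000 nt or more all lay below the mean of controls 1, 3 and 4 in both heterozygous libraries. Their median log2 difference from that mean was -0.49 and -0.57 in heterozygous libraries 1 and 2, against -0.55 in control 2. For all genes of that length it was -0.25 and -0.098 in the heterozygous libraries, against -0.40 in control 2. The 13 replication genes under 2000 nt had medians of 0.23 and -0.13 in the heterozygous libraries, against 0.47 in control 2. By genotype, the median log2 fold change was -0.44 for the 14 long genes, with 14 of 14 below 0, and -0.037 for the 13 short ones, with 9 of 13 below 0. For all genes of these lengths it was -0.096 and 0.024. With each library's trends on mRNA length and GC content removed, the median of all genes became 0.085 instead of -0.029. On that scale the 14 long genes had a median of -0.27 with 13 of 14 below 0, against 0.068 for all genes of that length. The 13 short ones had a median of 0.038 with 3 of 13 below 0, against 0.12 for all short genes. All 50 replication genes had a median of -0.065 with 31 below 0. The part of library preparation in the genotype difference was not tested.

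**Figure D4:**
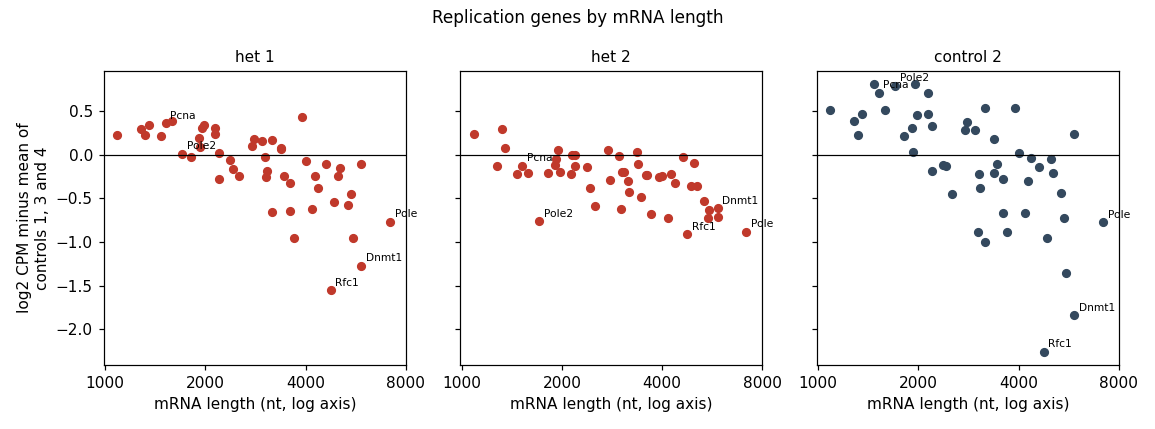
Log2 CPM of each of the 50 replication genes minus the mean of controls 1, 3 and 4, against mRNA length (log axis), in heterozygous libraries 1 and 2 and in control 2. Rfc1 and Dnmt1 are the lowest points of heterozygous library 1 and of control 2. In heterozygous library 2 points of all lengths lie mostly below 0, including Pole2, an mRNA of 1706 nt.

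Other genes of DNA replication, from 6 lists that complete the pathway, were also mostly below 0. Of 95 such genes, all of them tested, 80 were below 0 on the log2 scale (median -0.18), and 0 passed the test with edgeR or DESeq2. Both heterozygous libraries were below all controls for 15 of 95 (15.8%, against 8.14% of all genes), and above for 0. At an unadjusted p under 0.05, 4 of 95 were lower, namely Mthfd1, Donson, Asf1b and Top2a, and 0 higher. That share is near the 3.98% of all genes lower at that level, so the count is no result about these genes. Mthfd1, which supplies one-carbon folates for nucleotide synthesis, had the smallest p of them. It had 40.1 and 43.4 CPM in the heterozygous libraries, against 65.8, 57.4, 78.3 and 76.6 CPM in controls 1 to 4. Both heterozygous libraries were below the lowest control. For Mthfd1 the log2 fold change was -0.74 with an SE of 0.19 (edgeR, unadjusted p = 0.0043, adjusted p = 0.793).

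Of the 16 further licensing and firing genes 15 were below 0 (median -0.19). Cdc7, the kinase that fires origins, had 21.1 and 15.8 CPM in the heterozygous libraries, against 22.5, 24.3, 25.9 and 22.9 CPM in controls. Donson, which helps assemble the helicase, had 13.7 and 13.9 CPM in the heterozygous libraries, against 18.8, 18.6, 20.7 and 16.2 CPM in controls, and Wdhd1, which links the helicase to polymerase alpha, had 46.7 and 41.3 CPM, against 54.3, 50.3, 62.1 and 59.1 CPM. None of these 3 overlapped between the groups, which is how they were chosen, and their log2 fold changes were -0.37, -0.43 and -0.36. Of 18 further polymerase and clamp genes 11 were below 0 (median -0.078), among them Dna2, a nuclease of Okazaki fragments, at -0.32. The topoisomerase Top2a, chosen after its values were seen, had 300.4 and 329.9 CPM in the heterozygous libraries, against 718, 281, 774 and 651 CPM in controls 1 to 4. Control 2 was the lowest of the 6 libraries, and the other controls were far above both heterozygous libraries. For Top2a the log2 fold change was -0.94 with an SE of 0.38 (edgeR, adjusted p = 0.85). It was -1.10 among the libraries with Y-linked reads and 0.098 in the pair without them, so its sign differed between the sets. Of 14 fork protection genes 13 were below 0 (median -0.22), with the checkpoint kinase Atr at -0.39.

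Of 17 further nucleotide supply genes 15 were below 0 (median -0.15), including Cad, which starts pyrimidine synthesis, at -0.33. Of 12 further chromatin genes 10 were below 0 (median -0.18). The histone chaperone Asf1b averaged 32.1 ± 0.960 CPM in heterozygous and 41.5 ± 1.74 CPM in control libraries (SD, n = 2 and 4), and Cdca7l and the histone methyltransferase Suv39h1 had log2 fold changes of -0.45 and -0.19. Of 18 genes of the E2F, Rb and cyclin group 16 were below 0 (median -0.13), with Rbl1, a pocket protein that restrains E2F, at -0.39 and Fbxo5, an inhibitor of the anaphase-promoting complex, at -0.37.

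Genes of other states were set beside the replication genes, and their part in the values of those genes was not tested. Of 22 genes of G2 and M phase 20 were below 0, with a median log2 fold change of -0.35, 0 passing. By library their median relative to the control mean was -0.23 and -0.45 in the heterozygous libraries, against 0.14, -0.30, 0.10 and 0.050 in controls 1 to 4. Control 2 lay between the heterozygous libraries. Of 15 neuron markers 14 were above 0 (median 0.54), 0 passing, and their summed level was 3898 and 4769.7 CPM in the heterozygous libraries, against 3566, 3042, 2790.0 and 2353 CPM in controls. Both heterozygous sums exceeded every control. Of 10 radial glia markers, genes of the dividing progenitors, 7 were below 0 (median -0.27), 0 passing, and their summed level was 3547 and 4157 CPM in the heterozygous libraries, against 5139.9, 3541, 5152 and 4515 CPM in controls. The radial glia sums overlapped, with control 2 the lowest.

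All 12 targets of p53, the tumour suppressor that halts the cycle on DNA damage, were above 0 (median 0.50), where 53.9% of all genes were below 0. With edgeR 0 of them passed, against 0% of all genes. With DESeq2 3 passed, Cdkn1a, Ccng1 and Eda2r, against 0.455% of all genes. Cdkn1a, an inhibitor of the kinases that start S phase, had 16.9 and 28.3 CPM in the heterozygous libraries, against 4.64, 4.42, 10.7 and 4.50 CPM in controls. Ccng1 had 79.4 and 95.8 CPM in the heterozygous libraries, against 36.5, 47.1, 51.9 and 35.0 CPM in controls. Both genes were above all controls in both heterozygous libraries, as were 6.17% of all genes. Their log2 fold changes were 1.90 (SE 0.41) and 1.04 (SE 0.21), with edgeR adjusted p = 0.793 for each. Their DESeq2 adjusted p was 0.0125 and 0.0114. Markers of other cells were lower in level, and their sums overlapped between the groups. The sum of 9 blood and microglia genes was 151 and 0.0610 CPM in the heterozygous libraries, against 17.7, 20.3, 12.7 and 95.7 CPM in controls, and that of 9 endothelial and mural genes 22.4 and 15.2 CPM in the heterozygous libraries, against 23.5, 11.46, 23.1 and 39.3 CPM in controls. The sum of 13 surface ectoderm and mesenchyme genes was 198 and 73.4 CPM in the heterozygous libraries, against 156, 124, 166 and 216 CPM in controls. Of 6 dorsal telencephalon genes the sum was 153 and 116 CPM in the heterozygous libraries, against 121, 111, 86.6 and 172 CPM in controls. Heterozygous library 2 had 0 reads of Csf1r, Cx3cr1, Cldn5, Hba-a1 and Hba-a2, which allows up to 0.0610 CPM of each. The sum of 14 MGE and subpallial genes was 1748 and 3096 CPM in the heterozygous libraries, against 2151, 1779.6, 2239 and 1151 CPM in controls. On the log2 scale 13 of the 14 were above 0 and 1 below (median 0.45), 0 passing. Their median relative to the control mean was -0.15 and 0.97 in heterozygous libraries 1 and 2. In controls 1 to 4 it was 0.40, -0.030, 0.36 and -0.69.

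**Figure D5:**
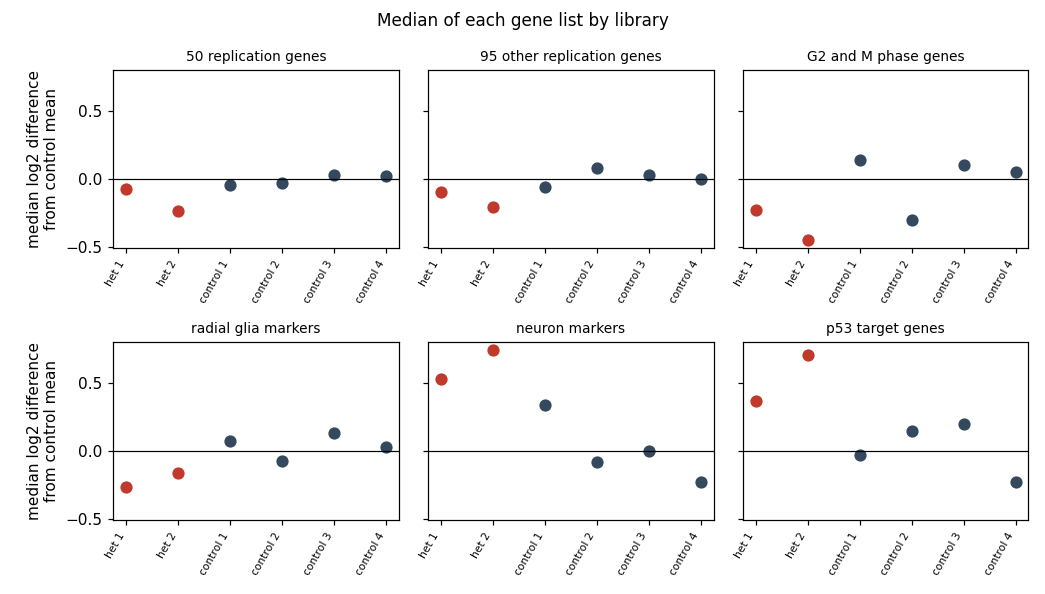
Median log2 difference from the control mean of 6 gene lists in each library, heterozygous libraries in red to the left of controls in dark grey. Replication, G2 and M phase and radial glia lists have both red points below 0, and neuron markers and p53 target genes have both above 0. In the G2 and M phase panel control 2 lies between the red points.

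The genes whose pattern was most like that of the 50 were sought among 13072 tested genes outside the list with a mean of at least 1 CPM. The measure was the Pearson correlation over the 6 libraries with the mean log2 CPM of the 50 genes. That mean, relative to controls, was -0.12 and -0.26 in the heterozygous libraries, against -0.037, -0.075, 0.091 and 0.021 in controls. The 5 highest were Mina and Leprel2 (0.997 each), Brip1 (0.993), Wdhd1 (0.989) and Intu (0.986). Brip1, a helicase of DNA repair, had 12.96 and 9.56 CPM in the heterozygous libraries, against 14.99, 13.4, 18.9 and 15.8 CPM in controls, so it was lowest in heterozygous library 2 and highest in control 3, the order of the mean of the 50. With 6 points and 13072 candidates such correlations are given as a description only.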

How the data were processed

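RNA was measured by mRNA sequencing (NuGEN kit, per the labels' protocols) in 6 libraries. The authors deposited raw read counts per gene for 38561 genes, made with Trim Galore, STAR, HTSeq and mm10 per the submitters' processing notes. They also deposited a signal, checked here to be the counts divided by a single size factor per library, for 18065 genes. The sources used here give no versions, annotation, strandedness or counting options. Rows that name no gene numbered 0, and columns of no sample 0.

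The main test was edgeR 4.0.16 (R 4.3.3) on the raw counts: filterByExpr, TMM factors, robust glmQLFit and glmQLFTest, two-sided, 2 heterozygous against 4 control libraries, with Benjamini-Hochberg adjustment over 16495 genes and a threshold of 0.05. The SE was obtained as the size of the log2 fold change over the root of the F statistic. Log2 CPM used a prior count of 2. Alternatives were DESeq2 1.42.0, limma-voom (limma 3.58.1), other scalings and filters, the authors' normalized signal on a log2(value + 1) scale, the sample code number as a block, Y-linked reads as a covariate or a split, removal of length and GC trends (loess, span 0.5; lengths known for 98.6% of genes), and leaving out each library. The procedure was tested on simulated data.

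A count of 0 allows up to 3 counts, or 0.0610 to 0.0835 CPM by library, counting error only. The labels do not say that samples came from separate embryos, so a p-value reflects only how far these samples spread, which may be technical. For 2 against 4 libraries an exact two-sided permutation p cannot be below 0.0667.

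The genes and lists were chosen with earlier results of these data known, so list counts are descriptions. Values by library are given for genes whose heterozygous libraries both lie outside the control range, Mcm2 to Mcm7, the E2F members, Pcna, Rrm1, Rrm2, the 3 highest and 3 lowest per kilobase, and the 3 most variable over controls. From each further list up to 3 non-overlapping genes with the smallest p are named, and some genes that this rule names are not reported here. Top2a was named outside this rule, after its values were seen. Gene IDs were matched to GENCODE M21 (GRCm38, 36723 of the raw table), with length and GC taken from the transcript with the longest coding sequence. Promoters are from RefSeq (GRCm38.p6). Protein sequences were not used here.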

Additional observations from a re-analysis of the deposited data

Results flagged for a closer look

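Among the 4 controls, 1 library lay far from the other 3 in 8 of the 50 genes, by a Dixon gap that chance exceeds in about 1 of 20 groups. In 7 of the 8 this was control 2. The same share over all tested genes is not given here, so these counts are no result about replication genes. Control 2 was high for Prim1 (60.6 CPM), Pole2 (30.9 CPM), Pcna (523 CPM) and Tyms (107 CPM), and low for Pole (81.3 CPM), Lig1 (105 CPM) and Msh6 (131 CPM). For Mcm6 it was control 4 (384 CPM), the highest control.

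For 9 genes named by library, the difference in the pair without Y-linked reads (heterozygous library 1 minus control 2) had the opposite sign to heterozygous library 2 against each of controls 1, 3 and 4. These were Orc1 (0.86 log2 units in the pair), Rfc1 (0.70), Dnmt1 (0.57), Chaf1a (0.40), E2f7 (0.28), Gins3 (0.20), Wdr76 (0.045) and Pole (0.00347), all lower in heterozygous library 2, and E2f1 (-0.18 in the pair), higher in heterozygous library 2. The sets went opposite ways for 31.7% of all genes, and for Wdr76 and Pole the pair was nearly level. The difference between the sets was not tested, since neither has replicates in both groups. Rfc1, Dnmt1 and Chaf1a are long mRNAs (4751, 5870 and 5535 nt), and control 2 had the lowest level of all 6 libraries for each of them.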

How the results depend on the processing

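Over 19 alternatives, of which the pair without Y-linked reads gives no test, 0 of the 50 genes passed at an adjusted p of 0.05, and 30 to 47 had a log2 fold change below 0 (63 to 82 of the 95 other replication genes). Of all genes, 75 passed with DESeq2 (7 higher). A block for the number in the sample code (a replicate block) gave 11, with 0 of the 50 among them; the groups share only 1 such number, 70, whose meaning the labels do not give. The median of the 50 was -0.065 with length and GC trends removed (0.085 over all genes), -0.22 with Y-linked reads only, -0.098 without Y-linked reads, and -0.24 to -0.080 leaving out 1 library. That of the other replication genes was -0.066 with trends removed and -0.21 to -0.11 leaving out 1 library.

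Some genes changed sign, and none had passed. Several of them had log2 fold changes near 0 in the full comparison. Others did not, such as Rfc1 (-0.89) and Dnmt1 (-0.63), which changed sign only in the pair without Y-linked reads. Mcm7 gave 0.014 with DESeq2 or RLE factors, 0.011 with total counts or no filter, 0.015 with a mean of 1 CPM, 0.021 with the block, 0.017 with the authors' values, 0.063 with trends removed, 0.00025 with limma-voom and 0.00099 with Y-linked reads only. Leaving out 1 library gave -0.074 to 0.085 for Mcm7, -0.14 to 0.028 for Mcm5, -0.33 to 0.15 for Pcna, -0.16 to 0.017 for Rrm2, -0.44 to 0.14 for Orc1 and -0.028 to 0.096 for E2f1. With trends removed Mcm5 was 0.015, Pcna 0.014 and Rrm2 0.010, and with Y-linked reads only Rrm2 was 0.0013. The median of all genes with trends removed was 0.085, above each of these values and above that of Mcm7. E2f1 was -0.036 with the Y-linked covariate. In the pair without Y-linked reads E2f1 (-0.18), E2f7 (0.28), Orc1 (0.86), Gins3 (0.20), Wdr76 (0.045), Chaf1a (0.40), Dnmt1 (0.57), Rfc1 (0.70) and Pole (0.0035) had the opposite sign to the full comparison. The cause was not tested. With heterozygous libraries left out in turn, the lone library is assumed to vary like the controls. The lowest level of the 50 genes was 4.98 CPM, far above the floor of 3 counts.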

Other observations

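Log2 ratios were formed for 10 pairs of replication genes, and the 3 pairs with the widest range over the 6 libraries are given first. The log2 ratio of Pole to Pole2, both subunits of polymerase epsilon, was 2.17 and 2.84 in the heterozygous libraries, against 2.99, 1.39, 2.97 and 2.91 in controls 1 to 4. Control 2 was the lowest and heterozygous library 1 the next. The log2 ratio of Chaf1a to Chaf1b, of the CAF-1 chaperone, was -0.16 and 0.30 in the heterozygous libraries, against 0.84, -0.50, 1.01 and 0.81 in controls, and that of Rfc1 to Rfc4, of the clamp loader, was -0.66 and 0.41 in the heterozygous libraries, against 1.01, -1.45, 1.304 and 1.26 in controls. The ranges of these 3 were 1.59, 1.51 and 2.75 log2 units. The other 7 pairs had ranges of 0.27 to 1.39, among them 0.54 for Rpa1 to Rpa2 and 0.49 for Pola1 to Pola2. The narrowest was that of Prim1 to Prim2, the primase subunits, at -0.19 and -0.24 log2 units in the heterozygous libraries, against -0.10, -0.17, -0.37 and -0.23 in controls. No test was run on these ratios.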
